A study of Homo sapiens with 2 samples.

Results

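Open chromatin was mapped by ATAC-seq, in which the transposase Tn5 inserts adapters where DNA is accessible, in SUM159, a cell line from a triple-negative breast tumour that belongs to the claudin-low, mesenchymal type. The peaks described here were 8025 intronic peaks that were called in cells without a targeting guide and had no counterpart in cells with guides to the ZEB1 promoter. They were selected from the No gRNA list on chromosomes 1 to 22 and X as peaks that overlapped no All gRNA peak by 1 bp or more, with a summit more than 1000 bp from every GENCODE transcript start, in no exon and inside a gene body. They made up 29.0% of the 27670 No gRNA intronic peaks. Among the 67868 No gRNA peaks of any kind on these chromosomes, 24.7% lacked an overlap. The converse set, All gRNA intronic peaks without a No gRNA overlap, held 8183 of 28004 peaks (29.2%).

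Both cell populations had been transduced with pLV-KRAB, a lentiviral vector that expresses Cas9 without nuclease activity joined to KRAB, a domain that recruits repressors, with a puromycin marker for selection and a U6 promoter for a guide, and both were grown in medium with insulin and hydrocortisone. No gRNA cells (1 library) received this vector without a targeting guide, and All gRNA cells (1 library) received it with a pool of 4 guides against the promoter of ZEB1, a repressor that binds E-boxes and maintains the mesenchymal state. With 1 library per group no test between the conditions was possible, so no p-value is given, all intervals cover counting error only, and which differences belong to the guides and which to a library cannot be told apart. A peak list holds no signal where no peak was called, so the absence of an All gRNA peak does not mean that accessibility there was 0, and in these bulk samples fewer cells with an open site and less opening per cell cannot be told apart.

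Introns hold a large part of the enhancers of a mammalian genome, and accessible intronic sites are typically short stretches where transcription factors displace nucleosomes. In mesenchymal breast cancer cells many such sites carry the TGACTCA element of AP-1, the FOS and JUN dimers that act at stimulus-responsive enhancers, often beside ACATTCC, the element of the TEAD factors of the Hippo pathway. ZEB1 itself binds E-boxes of the sequence CAGGTG.

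The lists gave no library totals, and the depth of the All gRNA library relative to No gRNA, recovered from the peak statistics, was 0.743. The No gRNA list held 74757 peaks and the All gRNA list 75217. At the targeted gene, 2 No gRNA peaks and 0 All gRNA peaks lay within 1000 bp of the main ZEB1 start. Promoters of 7 of 7 mesenchymal markers had a peak in No gRNA and 6 of 7 in All gRNA, the exception being ZEB1, and 0 of 8 epithelial marker promoters, CDH1 and EPCAM among them, had a peak in either library. Of 4 luminal markers, ESR1 and PGR had none and GATA3 and FOXA1 had peaks in both.

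Sequences around the summits of 5 of the 6 members with the highest -log10 q (the caller's significance after correction) are shown because these peaks lay farthest above the calling threshold. Each runs from 100 bases before to 100 bases after the summit on the plus strand of hg38, and capitals mark matches on either strand to any of the 12 motifs searched.
PAPPA, chr9:116234233-116234433: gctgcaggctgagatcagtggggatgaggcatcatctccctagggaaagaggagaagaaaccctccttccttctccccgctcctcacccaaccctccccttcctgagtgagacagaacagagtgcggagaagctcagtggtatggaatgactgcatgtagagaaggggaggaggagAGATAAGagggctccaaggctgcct
C18orf63, chr18:74316969-74317169: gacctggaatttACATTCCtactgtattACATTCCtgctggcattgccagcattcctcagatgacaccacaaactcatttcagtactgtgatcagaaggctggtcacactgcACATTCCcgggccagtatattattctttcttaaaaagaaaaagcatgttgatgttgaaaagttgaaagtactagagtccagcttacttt
RYR2, chr1:237678208-237678408: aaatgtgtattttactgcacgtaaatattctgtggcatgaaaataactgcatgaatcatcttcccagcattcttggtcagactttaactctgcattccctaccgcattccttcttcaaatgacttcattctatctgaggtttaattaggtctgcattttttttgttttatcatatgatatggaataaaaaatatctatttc
EEF2KMT, chr16:5092428-5092628: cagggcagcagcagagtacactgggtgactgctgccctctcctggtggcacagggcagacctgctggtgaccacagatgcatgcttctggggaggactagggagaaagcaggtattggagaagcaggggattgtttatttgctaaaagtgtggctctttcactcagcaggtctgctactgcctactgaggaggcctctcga
LINC02547, chr11:12042400-12042600: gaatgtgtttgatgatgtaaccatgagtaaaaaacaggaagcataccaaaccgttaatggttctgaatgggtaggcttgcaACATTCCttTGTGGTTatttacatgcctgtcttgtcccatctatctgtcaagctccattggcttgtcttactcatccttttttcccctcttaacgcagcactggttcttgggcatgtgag

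The 3 matches in C18orf63 are TEAD elements, the match in PAPPA is a GATA element and the adjacent matches in LINC02547 are a TEAD and a RUNX element. The summits in RYR2 and EEF2KMT had no match. Part of the EEF2KMT sequence occurred elsewhere in the genome, as 79 of the 171 overlapping stretches of 31 bases in the window had 2 or more copies, whereas no such stretch of the PAPPA, C18orf63, RYR2 or LINC02547 windows did.

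The strongest member lay in intron 6 of 21 of PAPPA, a metalloproteinase that cleaves insulin-like growth factor binding proteins. It spanned 625 bp (chr9:116234000-116234624), and its summit was covered by 60 extended read ends, which is called the pileup here (95% Poisson interval 45.8 to 77.2). The fold over local background, taken by the caller as pileup plus 1 over background plus 1, was 16.9, and the -log10 q was 56.0. Scaled by the depth ratio this pileup would be 44.6 in All gRNA. The lowest pileup called there at the same or a higher background was 9, and the nearest All gRNA peak was 36857 bp away. Next in order was a member in the first intron of C18orf63 (chr18:74316761-74317248, pileup 48). The fourth was intron 61 of 104 of RYR2, the calcium release channel of the heart (chr1:237677938-237678463, pileup 41). The fifth to the last of the 12 strongest members lay in EEF2KMT, a methyltransferase of elongation factor 2, the long non-coding RNA LINC02547, the chromatin protein gene BAHCC1, the translation factor gene EIF4G3, the adhesive phosphatase gene PTPRM, the transcription factor gene EBF1, the kinase gene MAP3K13 and the overlap of MGST1 and LMO3. Their pileups ran from 33 to 62 and their scaled pileups from 24.5 to 46.1, against All gRNA call limits of 4 to 14. The EIF4G3 summit sequence was found at 14 places in the genome and the PTPRM summit sequence at 3, so reads there may not be assigned to 1 place, and the other 10 of the 12 summits were unique over 31 bases.

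These 12 stood far above the bulk of the set in -log10 q. Member pileups had a median of 10 (quartiles 9 and 14, range 5 to 257), and the medians of fold, -log10 q and width were 6.05, 6.95 and 239 bp. The 19645 intronic No gRNA peaks shared with All gRNA had medians of 20, 9.56, 16.5 and 354 bp, and 21.5% of members but 4.48% of shared peaks had the minimum width of 200 bp. Membership followed strength, which the selection itself favours: 65.0% of intronic peaks with a pileup of 5 to 8 were members, 53.8% at 9 to 10, 40.1% at 11 to 14, 19.9% at 15 to 24 and 3.99% at 25 or more. Of the 2767 intronic peaks with the highest -log10 q (41.6 or more), 5 were members (0.181%).

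Most members stood above the All gRNA call limit after scaling for depth. A minority did so by more than the counting error of the No gRNA pileup. Membership itself depends on these pileups, and counting error of the All gRNA library was not included. After scaling, 7946 of 8025 (99.0%) were at or above the lowest pileup called in All gRNA at the same or a higher background. When the lower end of the Poisson interval was scaled instead, 2862 (35.7%) were, compared with 79.4% of shared intronic peaks. Few members lay close to an All gRNA peak, as 1078 (13.4%) were less than 1000 bp from one and 3742 (46.6%) were more than 10000 bp from any. At the edge of the overlap rule, members in INVS (pileup 8) and ERG (pileup 7) touched an All gRNA peak without sharing a base, and peaks in LEF1-AS1 (pileup 9) and PLPP7 (pileup 7) were left out for overlaps of 3 and 4 bp. At the edge of the start site rule, summits 1001 bp away in NTN4 and 1002 bp away in FEZ2 were kept and summits 999 bp away in MSH3 and 997 bp away in LHFPL2 were not.

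The members lay in 5423 genes of any kind. Protein-coding genes held 6112 (76.2%), a share close to the 75.2% of shared intronic peaks and the 73.7% of All gRNA only intronic peaks, and 1814 (22.6%) lay in a long non-coding RNA gene and no protein-coding gene. Of 6940 protein-coding genes with any No gRNA intronic peak, 3669 (52.9%) hosted at least 1 member, and 622 (8.96%) hosted 3 or more. Single peaks were the rule, with 2344 hosts of 1 member, 703 of 2, 422 of 3 or 4, 191 of 5 to 9 and 9 of 10 or more. A shared intronic peak lay in 2594 hosts (70.7%) as well, and an All gRNA only peak in 1817 (49.5%), so most hosts also had an intronic peak that both libraries called.

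Host genes were long, and their number of members tracked their length. Genes with an intronic peak but no member had a median length of 64.7 kb, hosts of 1 member 88.8 kb, hosts of 3 or 4 members 274.2 kb and hosts of 10 or more 927.6 kb. The share of intronic peaks that were members differed little with length, from 30.9% in the shortest class of genes to 27.5% to 27.7% in the middle classes and 30.3% in the longest. All gRNA only peaks took 28.4% and 30.4% of the All gRNA intronic peaks in the shortest and the longest class. Promoters of most hosts had a peak in both lists, at 68.5% of hosts, and 72.0% of hosts of 3 or more members, compared with 68.0% of genes with a No gRNA intronic peak and no member. A promoter peak in No gRNA alone was found at 101 of 3669 hosts and one in All gRNA alone at 54. The same counts were 82 and 50 for the 3271 genes with a No gRNA intronic peak and no member. Over all 19970 protein-coding genes they were 523 and 285, so more promoter peaks in No gRNA alone were not particular to hosts.

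RUNX1, a transcription factor of blood formation that is also active in breast epithelium, hosted the most members. It held 14 along 1217 kb, beside 25 shared and 11 All gRNA only intronic peaks. The pileups of the 14 ran from 7 to 21 with a median of 11, and the strongest by -log10 q (chr21:35614781-35615105) had a fold of 10.3. Members placed in the canonical RUNX1 transcript lay in introns 2, 2 and 6. The others, the strongest among them, lay in the annotated gene body but in no intron of that transcript. ZFPM2, a cofactor of GATA factors, and CNTNAP2, a neurexin family adhesion molecule, followed with 12 each. CNTNAP2 held more All gRNA only peaks (16) than members, and ZFPM2 held 9. The FMR2 family gene AFF2, the IQCJ-SCHIP1 readthrough gene and ENSG00000282278 had 11 each. ENSG00000282278 is a long annotation that spans FIP1L1, LNX1, CHIC2, GSX2 and PDGFRA, and 5 of its members are counted in LNX1, a ubiquitin ligase gene, too. ENSG00000285218, ATXN1 and the protocadherin gene PCDH9 had 10 each. Genes with 9 members were CMIP, the actin-bundling protein gene PALLD, the endosomal exchanger gene SLC9A9, the potassium channel gene KCNMA1, PTPRM and NCKAP5.

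The balance of members against All gRNA only peaks varied among these genes. AFF2 held 11 members against 3 All gRNA only and 5 shared peaks, and a stretch of it from intron 3 to intron 7 held 5 members and no other intronic peak. The 11 AFF2 pileups were low, from 7 to 15, and 3 of them passed the call limit with the lower end of their interval. ENSG00000285218, which spans CLDN11 and SLC7A14, stood out for strength: 8 of its 10 members passed with the lower end, against 1 All gRNA only peak in the gene. Its strongest member (chr3:170689637-170689937) had a fold of 12.5 and a pileup of 28, or 20.8 after scaling against a limit of 6. Its member with a pileup of 22 lay 163 bp from an All gRNA peak. The summit sequence of 1 of its 10 members occurred 28 times in the genome. CMIP carried 8 of its 9 members in its first intron, among them a peak of pileup 32 with an AP-1 element (chr16:81568408-81568745, fold 15.9), and held 4 All gRNA only peaks. In contrast, NCKAP5 (9 against 10), IQCJ-SCHIP1 (11 against 11) and RUNX1 (14 against 11) had peaks of either library alone in like numbers.

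Among genes with 3 or more members, the leading hosts per 100 kb of gene were short, which a ranking by length itself favours. FAM24B held 3 members in 30.6 kb (9.82 per 100 kb), which the overlapping ENSG00000286088 shares, but the summit sequence of 1 of the 3 occurred 1175 times in the genome. DUSP10, a phosphatase that inactivates stress-activated MAP kinases, held 3 in intron 2 (7.38). IRF1, the interferon-induced transcription factor, held 4 with pileups of 9 to 37, of which 2 passed the limit with the lower end. None of the 4 lay in an intron of the canonical IRF1 transcript, and 3 of the 4 lay in the antisense gene IRF1-AS1 too. The members with pileups of 35, 26 and 37 lay 154, 678 and 272 bp from an All gRNA peak. ANXA2, a calcium-dependent membrane-binding protein, held 3 with pileups of 21 to 27, beside 1 shared and 0 All gRNA only intronic peaks. ZNF395 and TMBIM6, an inhibitor of cell death at the endoplasmic reticulum, held 3 each, and all 3 of ZNF395 passed with the lower end. The 4 members of NOTCH2NLR are uncertain, because all 4 summit sequences occurred more than once in the genome, as did all 3 in SRGAP2, and reads from near-identical copies cannot be told apart.

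Genes were then chosen, after their values were seen, as those with 5 or more members and at most 1 All gRNA only intronic peak. There were 38 of them among the 200 protein-coding genes with 5 or more members, and in the converse direction 32 of 164 genes. Among all 622 hosts of 3 or more members, 111 (17.8%) held 0 All gRNA only peaks and 148 (23.8%) held at least as many as members. The converse count was similar, as 96 of 599 protein-coding genes with 3 or more All gRNA only intronic peaks held 0 members. EBF1, a transcription factor best known from B cells, had the most members of the 38 after ENSG00000285218, with 8 against 1 All gRNA only and 13 shared peaks. Its strongest member lay in the last intron (chr5:158701542-158701861), with a pileup of 38, a scaled pileup of 28.2 against a limit of 6, a fold of 16.5 and an AP-1 element, and the other 7 had pileups of 7 to 17. Promoter peaks of EBF1 were called in both libraries, the highest pileups being 146 (No gRNA) and 90 (All gRNA), each at its own library's depth and not scaled.

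CDH2, which encodes N-cadherin, the adhesion molecule that mesenchymal cells carry, held 5 members, 6 shared and 1 All gRNA only intronic peak. Of the 5, with pileups of 8, 16, 11, 12 and 8, 4 lay in intron 2, and the strongest (chr18:28039237-28039518) had a fold of 9.66 and a scaled pileup of 11.9 against a limit of 4. Of these CDH2 members 2 passed the limit with the lower end of their interval. The CDH2 promoter had a peak in both libraries. The remaining genes of this kind included NRP1 and TLN2 (6 members, 1 All gRNA only), the notch effector gene RBPJ and the kinase gene CAMK2D (6 and 0), EYA2 (6 and 0), LIMS1 and the calcium exchanger gene SLC8A1 (5 and 0), and the actin regulator gene EVL (6 and 1). With the lower end, 4 members of SLC8A1 and 3 each of TLN2, CAMK2D and EYA2 passed the limit. In RBPJ and EVL 2 each did, and in NRP1 1 did. All 5 LIMS1 members lay in its first intron, with pileups of 12 to 38, and 1 of them passed the limit with the lower end. Those with pileups of 28, 19 and 38 lay 591, 478 and 463 bp from an All gRNA peak. The summit sequence of 1 LIMS1 member occurred 3 times in the genome.

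Genes of 9 lists are described, which had been chosen with earlier results of these data known, and a peak was counted in every protein-coding gene that holds it. Over all protein-coding genes 29.2% of such counts were members, and the lists lay between 23.6% and 30.8%, each with an interval that included the overall share. The All gRNA only share of All gRNA intronic peaks, counted the same way, was 28.6% over all protein-coding genes, and 52.9% of genes with a No gRNA intronic peak hosted a member, at a median length of 88.8 kb. Among mesenchymal and matrix genes 16 of the 27 with a No gRNA intronic peak hosted a member, and 29 of 98 peaks (29.6%) were members, beside 20 of 90 All gRNA intronic peaks (22.2%) called there alone. Those with 3 or more were CDH2 (5), TCF4 (4), a binding factor of E-boxes, and the fibrillin genes FBN1 and FBN2 (3 each), and the last 2 held 5 All gRNA only peaks each. ZEB2, the paralog of ZEB1, held the strongest member of the list (chr2:144460083-144460445), with a pileup of 26 and a fold of 9.38 in its second intron, one of 2 members beside 3 shared and 0 All gRNA only peaks. ZEB1 itself held 1 member and 1 All gRNA only intronic peak, and TWIST1 held 0 members and 4 shared peaks.

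Epithelial genes had 17 members among 71 peaks (23.9%), in 12 of 28 genes, and 27 All gRNA only among 85 (31.8%). Only OVOL2, a repressor of mesenchymal genes, reached 3 members, all with pileups of 8 or 9, and 0 of them passed the limit with the lower end. That at chr20:17958141-17958340 also lay in intron 1 of SNX5, and that at chr20:17996172-17996371 lay in no intron of the canonical transcript. CDH1 (E-cadherin) held 1 member, 1 shared and 2 All gRNA only peaks. In the list of integrins and focal adhesion 46 of 181 peaks (25.4%) were members and 28 of 163 (17.2%) were All gRNA only. LPP held 7, the talin gene TLN2 6, LIMS1 5, ITGA9 4, and PTK2 (focal adhesion kinase) and TNS3 3 each. The strongest member of that list was in the collagen receptor gene ITGA11 (chr15:68384547-68384938), with a pileup of 30 and a fold of 12.5.

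Of the signalling lists, that of TGF-beta and BMP had 32 members among 107 peaks (29.9%), beside 21.4% All gRNA only, with 5 in LTBP1, which tethers latent TGF-beta to the matrix, and 4 in the inhibitory SMAD6. The strongest LTBP1 member (chr2:33355097-33355383) had a pileup of 26 and a fold of 16.3, and 4 of the 5 passed the limit with the lower end. The Hippo list had 35 among 117 (29.9%), beside 21.3% All gRNA only, in 16 of 21 genes (76.2%) with a median length of 123.0 kb. There were 4 in the phosphatase PTPN14 and 3 each in the coactivator WWTR1 (TAZ), TEAD1, STK3, STK4 and WWC2. All 3 WWTR1 members passed with the lower end, while the gene held 4 All gRNA only peaks. The Wnt list had 32 among 104 (30.8%), beside 30.6% All gRNA only, with 5 in ROR1, 4 each in ROR2 and TNIK and 3 in PRICKLE2, of which ROR2 had pileups of 8 at every member. The 4 scaled to 5.94 against a limit of 4, and 0 of them passed it with the lower end. Receptor tyrosine kinases had 35 among 148 (23.6%), beside 27.0% All gRNA only, with ROR1 and ROR2 counted again, 3 each in EGFR and IGF1R, and the strongest in the first intron of KIT, a lone member with a pileup of 31 (chr4:54661345-54661647) that lay 116 bp from an All gRNA peak.

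Axon guidance and synaptic adhesion genes had 84 among 307 (27.4%) and 118 All gRNA only peaks among 338 (34.9%). Of these genes 10 held 3 or more members, led by CNTNAP2 and by CNTNAP5 with 7. Repeated summit sequences, with up to 2441 copies, were found at 2 of the 7 CNTNAP5 members. The strongest members were in CNTNAP5 and the semaphorin gene SEMA3E, each with a pileup of 22 and a fold of 13.9. AP-1 and other stimulus-induced factors had 49 among 194 (25.3%), beside 22.6% All gRNA only, with RUNX1 ahead of NFIA (4) and of BACH2, RUNX2, HMGA2 and the glucocorticoid-induced FKBP5 (3 each). FKBP5 had pileups of 13, 36 and 42, the highest median in that list among genes with 3 or more.

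Position within the gene, which the selection used only for the first 1000 bp, differed little from that of shared peaks. Of members placed in an intron of the canonical transcript, 28.7% lay in the first intron compared with 29.7% of shared peaks, a difference of -0.97 percentage points (95% Newcombe interval -2.42 to 0.50). The median distance to the nearest transcript start was 10694 bp for members, 11092 bp for shared and 11902 bp for All gRNA only intronic peaks. Members lay a median of 12.5 kb from the nearest shared peak summit of any kind, and 26.0% had one within 5000 bp, compared with 18.6% for All gRNA only intronic peaks. Few members formed pairs, as 318 (3.96%) had another member's summit within 1000 bp. GC content within 100 bp of the summit had a median of 43.3% in members and 44.3% in shared peaks. The 31 bases at the summit occurred 2 or more times in the genome for 6.63% of members (interval 6.11 to 7.19), 5.82% of shared and 7.82% of All gRNA only intronic peaks.

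The sequence motif in which members differed most from shared intronic peaks was that of AP-1. TGACTCA lay within 100 bp of the summit in 1830 members (22.8%) and in 33.3% of shared intronic peaks, a difference of -10.5 percentage points (interval -11.6 to -9.32), beside 23.5% over all No gRNA peaks on these chromosomes. AP-1 matches were less frequent in members in each of the 5 pileup classes, the differences running from -5.53 to -10.9 points with every interval below 0. The highest class, 25 or more, has no upper limit, and members and shared peaks were not matched for strength within a class. All gRNA only intronic peaks had 26.2%, a difference of -7.02 points from their own shared peaks (interval -8.17 to -5.86), and members minus All gRNA only gave -3.38 points (interval -4.71 to -2.06).

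The E-box CAGGTG was found in 853 members (10.6%), in 10.9% of shared intronic peaks (difference -0.26 points, interval -1.05 to 0.56) and in 11.6% of all No gRNA peaks. All gRNA only intronic peaks had it in 15.2%, which was 4.04 points above their own shared peaks (interval 3.16 to 4.94), and members minus All gRNA only gave -4.52 points (interval -5.55 to -3.49). By pileup class, members minus shared peaks gave -2.60 points (interval -5.18 to -0.16) at 5 to 8, -1.61 (-3.61 to 0.36) at 9 to 10, -1.96 (-3.62 to -0.26) at 11 to 14, -0.07 (-1.81 to 1.83) at 15 to 24 and 1.61 (-1.48 to 5.58) at 25 or more. Both CAGGTG and TGACTCA lay in the window of 1.93% of members.

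The other 10 motifs searched differed less than AP-1 between members and shared peaks. The TEAD element ACATTCC was in 5.72% of members, 5.74% of shared and 4.41% of All gRNA only intronic peaks, and 4.63% of all No gRNA peaks. The RUNX element TGTGGTT was in 6.77% of members, 7.24% of shared and 5.55% of All gRNA only intronic peaks, and 5.69% of all No gRNA peaks. For both, the interval of members minus shared peaks included 0, and members stood above All gRNA only peaks by 1.31 points (interval 0.63 to 1.99) for TEAD and 1.22 points (0.48 to 1.96) for RUNX. The second E-box CAGCTG, bound by many basic helix-loop-helix factors, was in 11.6% of members, 12.3% of shared and 10.8% of All gRNA only intronic peaks, and 12.4% of all No gRNA peaks. The forkhead element TGTTTAC was in 4.24% of members and 3.71% of all No gRNA peaks, the glucocorticoid receptor element ACANNNTGT in 7.60% and 6.43%, and the GATA element AGATAAG in 3.35% and 2.40%, and each interval of members minus shared intronic peaks included 0. Elements typical of promoters and insulators were rare: the CTCF core AGGGGGCG was in 0.935% of members and 3.06% of all No gRNA peaks, with members 0.25 points above shared intronic peaks (interval 0.02 to 0.51), and the ETS element CCGGAAGT was in 0.224% and 1.25%. The STAT element TTCCNGGAA was in 0.935% of members and 0.832% of all No gRNA peaks, and the C/EBP element TTGCGCAA in 0.0872% and 0.122%. None of the 12 motifs was found at 3527 of the 8025 members. A match is a string of letters, not a bound site, and all motifs were searched on both strands.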

How the data were processed

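ATAC-seq of 2 SUM159 libraries was used. Per the study's methods, the authors trimmed reads with fastp, aligned them to hg38 with bowtie2, discarded duplicates and reads on the mitochondrial genome or the ENCODE exclusion list, and ran MACS2 on each library without a control (extension of 150 bp, shift of -75), although the shortest peak was 200 bp in both lists. The deposited lists give each peak's position and summit, a score, a fold over local background (a ratio), and the −log10 of the p-value and of the q-value as the authors' caller wrote them. The score was not used. A few items are not reported here.

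From the fold and −log10 p the whole-number summit pileup was solved for 100% of peaks of either list (within 0.005 of the deposited −log10 p), and the ratio of the lowest backgrounds gave the relative depth. Files give no read totals, read ends of a fragment are not independent, and precision rests on pileups near 10. Genes came from GENCODE release 44. Shares have 95% Wilson, their differences Newcombe and pileups exact Poisson intervals. Scripts used Python 3.11.15, numpy 2.4.6, pandas 2.3.3, scipy 1.17.1 and pysam 0.24.0, and were tested on simulated data.

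The members, gene lists and comparisons were chosen with earlier results of these data known. Chosen for description were the 12 members with the highest −log10 q, the 15 protein-coding genes with most members (ties by shorter gene) and the 8 with 3 or more and most per 100 kb. Also chosen were listed genes with 3 or more and the gene of each list with the strongest member. The 6 strongest sequences not on chromosome 8 and the 2 peaks nearest to each limit were chosen too. Not everything chosen is named in the text. Alternatives were other overlap rules, strength thresholds, start site distances and windows.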

Additional observations from a re-analysis of the deposited data

How the results depend on the processing

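No paired analysis was possible because there was only 1 library per condition. Of 60 values under other settings for 10 results, 35 stayed within 1.5 times the count or within the interval of the main value and 25 moved. The sign changed in 2 of the 60, both of the CAGGTG difference, whose interval included 0. The number of members, 8025, went to 1973 for −log10 q of at least 10 and to 5347 for the 50000 strongest peaks of each list. Protein-coding hosts went from 3669 to 1333, and genes with 3 or more members from 622 to 40, for −log10 q of at least 10, and the latter to 330 for the 50000 strongest. The share of intronic peaks without overlap went from 29.0% to 35.3% with overlaps of 50% of both peaks, 32.9% with summits within 150 bp, 25.1% with gaps of up to 1000 bp, 25.8% and 12.1% for −log10 q of at least 5 and 10, 34.9% with 5 in both lists and 29.6% for the 50000 strongest. The AP-1 difference of -10.5 points went to -11.7 with summits within 150 bp, -9.25 with gaps of up to 1000 bp, -8.99 for −log10 q of at least 10, -4.69 and -13.4 with windows of 50 and 200 bp either side, and -7.00 as the mean within pileup classes, weighted by members. The CAGGTG difference of -0.26 points went to -1.19 with 200 bp either side, interval -2.24 to -0.12, and to -1.55 within pileup classes, and it was 0.02 with gaps of up to 1000 bp (interval -0.81 to 0.88) and 0.06 for −log10 q of at least 10 (interval -1.29 to 1.55). Median GC went from 43.3% to 43.6% and 42.6% with 50 and 200 bp. More than 4000 bp from a start, 27.2% lay in the first intron and the median distance was 15357 bp, by construction larger. Members at or above the call limit went from 2862 to 7946 with the pileup itself, since the lower interval end was then not required. They went to 2120 with the median ratio at shared peaks, which was 0.928 times the depth ratio. Other causes were not tested. Membership followed strength and a single library stood behind each group, and the lists give no signal where no peak was called.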

Other observations

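Members were spread over all 23 chromosomes examined. Their share of the No gRNA intronic peaks ran from 26.7% on chromosome 5 (509 of 1906) to 35.6% on chromosome 21 (120 of 337, 95% interval 30.7 to 40.9), and it was 34.2% on chromosome X (246 of 720, interval 30.8 to 37.7). Of the 120 members on chromosome 21, 14 lay in RUNX1, which had 39 No gRNA intronic peaks. Of the 246 on chromosome X, 11 lay in AFF2, which had 16. Among 279 windows of 10 Mb with 30 or more No gRNA intronic peaks, the share had a median of 28.6% and ran from 15.4% on chromosome 4 between 30 and 40 Mb (8 of 52) to 48.4% on chromosome X between 140 and 150 Mb (15 of 31), the window that holds AFF2. The 95% interval lay above the overall share in 15 windows and below it in 8. Among 279 windows, some 95% intervals would miss that share through counting error alone. The median log2 ratio (All gRNA over No gRNA, scaled for depth) over all shared intronic peaks was -0.057. It was 0.11 in the window on chromosome 4 and 0.17 in that on chromosome X.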
